A study of Mus musculus with 11 samples.

Results

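The genes described here are 10 transcriptional targets and feedback inhibitors of FGF-ERK signalling: the Sprouty genes Spry1, Spry2 and Spry4, the Spred genes Spred1 and Spred2, the dual-specificity phosphatase genes Dusp4 and Dusp6, and the PEA3 family transcription factor genes Etv1, Etv4 and Etv5. They were chosen by symbol, with earlier results of these data known. All 10 were found among the 19935 genes measured on 11 one-colour Affymetrix arrays of mouse embryonic stem cells (ESCs). The 4 groups were cells labelled Bmpr1a-/- kept for 3 days in N2B27 (n = 3), wild-type E14 cells kept for 3 days in N2B27 (n = 3), Bmpr1a-/- cells in ESC medium (n = 2, numbered 2 and 3) and E14 cells in ESC medium (n = 3). The Bmpr1a-/- cells, called mutant below, carry the loss of Bmpr1a, whose product receives bone morphogenetic protein signals. N2B27 contains no serum and lets ESCs begin to differentiate. The labels name 3 mutant cell lines (C1-6, Fr124 and Fr88) without giving the line on each array, and E14 is a separate line, so genotype and cell line cannot be told apart. Separate cultures are not stated for the arrays of 1 group, and the p-values therefore refer to array-to-array spread that may be technical.

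Fibroblast growth factors bind receptor tyrosine kinases, which switch on RAS and the kinase chain RAF, MEK and ERK. ERK raises the transcription of its own brakes. Sprouty and Spred proteins act upstream, on RAS and RAF activation, while DUSP4 and DUSP6 remove phosphate from ERK itself. ETV1, ETV4 and ETV5 are activators that carry the FGF signal into transcription, and their genes are repressed by Capicua until ERK inactivates it. In mouse ESCs, autocrine FGF4 drives ERK and prepares the cells for lineage choice. The mRNAs of these genes are therefore widely used as readouts of the pathway. ERK activity itself was not measured here.

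Promoter sequence is shown for Dusp6 and Spry2, the genes of the 10 in whose matched windows a Capicua octamer was found, and for Spry1 as a window without one. The genotype difference had opposite signs in the 2 media for Dusp6 and Spry2, and also for Spred1, Spred2 and Etv5, whose windows held none. The same held for Dusp4, which had no matched window. Only for Dusp6 did the differences in both media pass the test described below. Each run covers 150 bases before to 30 after the start site, 5′ to 3′ on the gene's strand, from RefSeq (GRCm38.p6), and capitals mark a Capicua octamer. The Dusp6 window is chr10:99263081-99263260 (plus strand), that of Spry2 chr14:105896790-105896969 (minus strand) and that of Spry1 chr3:37639797-37639976 (plus strand).
Dusp6: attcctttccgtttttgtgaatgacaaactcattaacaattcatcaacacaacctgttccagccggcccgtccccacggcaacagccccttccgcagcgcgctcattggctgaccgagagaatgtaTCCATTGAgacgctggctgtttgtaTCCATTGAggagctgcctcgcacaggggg
Spry2: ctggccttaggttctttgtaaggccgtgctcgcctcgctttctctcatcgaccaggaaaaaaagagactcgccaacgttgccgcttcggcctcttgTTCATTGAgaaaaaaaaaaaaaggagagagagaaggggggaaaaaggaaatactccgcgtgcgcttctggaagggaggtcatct
Spry1: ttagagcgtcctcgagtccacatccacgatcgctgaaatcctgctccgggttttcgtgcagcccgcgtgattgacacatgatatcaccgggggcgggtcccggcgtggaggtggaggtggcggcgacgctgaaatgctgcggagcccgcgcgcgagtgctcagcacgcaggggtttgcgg
Windows of 250 bases before to 50 after a start site were matched for 7 of the 10 genes, with 9 windows in all (Spry1, Spry2, Spred1, Spred2 and Dusp6 with 1 each, Etv1 and Etv5 with 2 each). The 4 octamers TGAATGAA, TGAATGGA, TCAATGAA and TCAATGGA, searched on both strands, occurred in 2 of these 9 windows and in 3.84% of the 32851 windows of all genes. Dusp6 held TCAATGGA on the opposite strand beginning at positions -24 and 2 from the start site. Spry2 held TCAATGAA on the opposite strand beginning at position -54 from the start site. The ETS core CCGGAA occurred in 1 of the 9 windows (Spry2) against 14.9% of all windows, and its variant CAGGAA in 4 (Spry2, Spred1, and 1 window each of Etv1 and Etv5) against 30.6%. The AP-1 site TGAGTCA (5.2% of all windows), the CRE TGACGTCA (1.79%) and the CArG box (1.63%) occurred in none of the 9. A match describes these letters only and was not tied to binding or to the expression values.

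Each deposited value is on a log2 scale and is centred gene by gene, so arrays can be compared for a gene, but no gene can be called high or low against another. A difference of 1 is a 2-fold difference. The number of arrays limits the precision. Mutant replicate 2 in N2B27 deviated most from its group mean over all genes, with a root mean square of 0.185 against 0.0774 to 0.155 for the other arrays. Bmpr1a read 0.15, -0.14 and -0.05 in mutant and 0.61, 0.68 and 0.76 in control cells in N2B27, and -0.03 and 0.00 in mutant and 0.37, 0.16 and 0.25 in control cells in ESC medium. Mutant arrays were below all controls in both media. The difference was -0.70 in N2B27 (SE 0.09, adjusted p = 0.00211) and -0.27 in ESC medium (SE 0.10, adjusted p = 0.145). Adjusted p-values throughout are limma's moderated test with Benjamini-Hochberg adjustment over all genes, and a gene was called, and is said to have risen or fallen, where this was under 0.05.

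**Figure D1:**
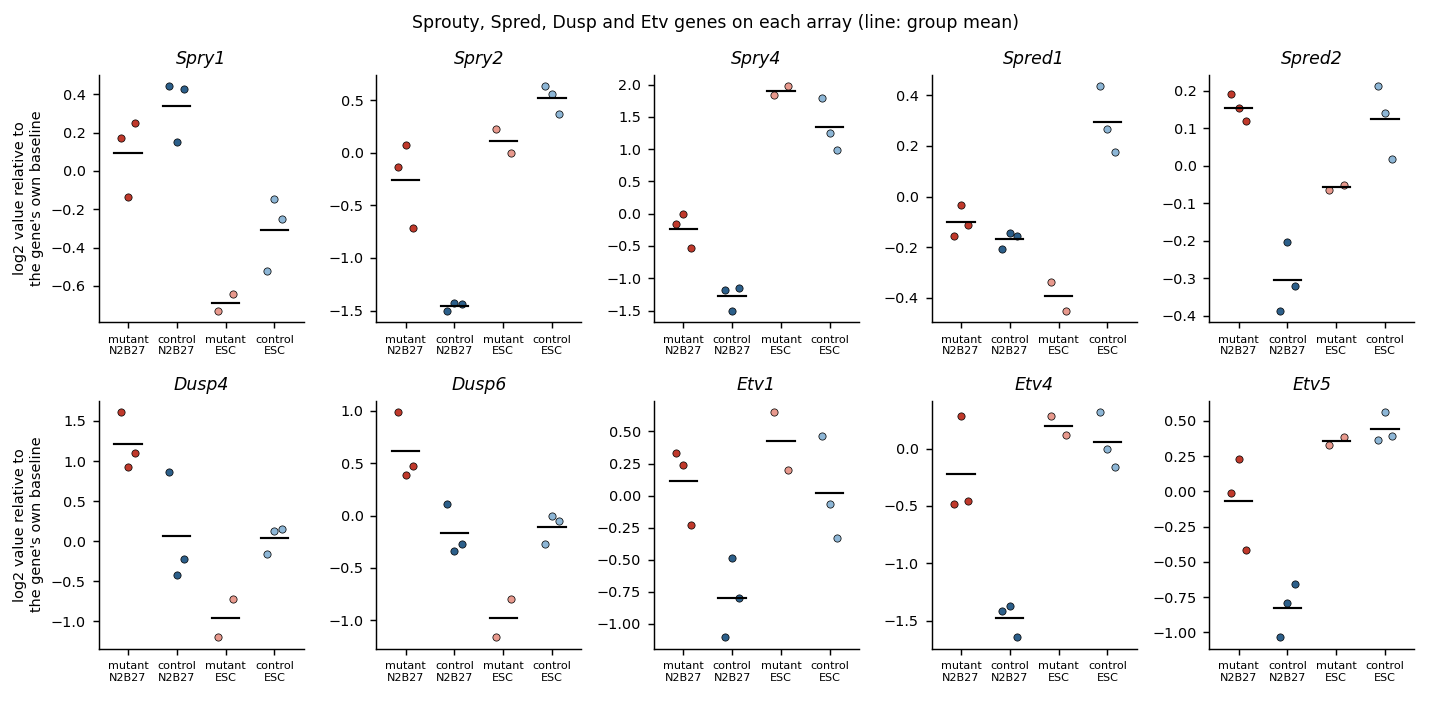
Log2 value relative to the gene's own baseline (y axis) of each of the 10 genes on each array, by group (x axis, mutant left of control in each medium). Points are arrays and lines are group means. In N2B27 every mutant array of Spry2, Spry4, Spred2, Dusp4, Dusp6, Etv1, Etv4 and Etv5 sits above every control array.

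How mutant and control cells differ after 3 days in N2B27 was addressed first. Of the 10 genes, 6 rose in mutant cells and none fell, while 4.1% of all genes rose and 1.64% fell. The 6 were Spry2, Spry4, Spred2, Dusp6, Etv4 and Etv5. Mutant and control arrays did not overlap in 8 genes, all higher in mutant, against 11.7% of all genes (8.53% were lower without overlap), and the median difference of the 10 was 0.85 against -0.00 over all genes. The 4 genes not called were Spry1, Spred1, Dusp4 and Etv1. With the replicate number as a block, 8 of the 10 rose, Dusp4 and Etv1 being added, and 1669 of all genes were called against 1144. Naive pluripotency genes were higher in the same arrays: of 13 measured, 5 rose (6 under quantile normalization) and none fell, and their mean per array lay between -0.35 and -0.27 in mutant and between -1.19 and -0.91 in control cells. The part of this in the ERK target values was not tested. In bulk RNA, a change in the share of cells that express a gene and a change in RNA per cell cannot be told apart.

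Among the Sprouty genes, whose products block receptor signalling to RAS and RAF, Spry2 read -0.14, 0.07 and -0.72 in mutant cells and -1.50, -1.43 and -1.44 in control cells in N2B27. The control arrays lay within 0.0719 of each other and every mutant array stood well above them. The difference was 1.199 (SE 0.17, adjusted p = 0.00411), or 2.30-fold. Spry4 read -0.17, 0.00 and -0.53 in mutant and -1.18, -1.51 and -1.14 in control cells, again with no overlap. It rose by 1.04 (SE 0.20, adjusted p = 0.0163), and this call was lost without control replicate 2 (0.93, adjusted p = 0.0630). Spry1 read 0.17, -0.14 and 0.25 in mutant and 0.44, 0.15 and 0.43 in control cells, so the groups overlapped, and it was the 1 gene of the 10 with a difference below 0 (-0.24, SE 0.13, adjusted p = 0.353, 95% interval -0.53 to 0.04).

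The Spred proteins are relatives of Sprouty that hold back RAS by recruiting neurofibromin. Spred2 read 0.19, 0.15 and 0.12 in mutant and -0.39, -0.20 and -0.32 in control cells in N2B27. The groups were far apart for their small spread, and the gene rose by 0.46 (SE 0.07, adjusted p = 0.00493), or 1.38-fold. Its 2 transcript clusters, the array's units for a gene or part of one, gave 0.39 and 0.52. Spred1 read -0.16, -0.03 and -0.11 in mutant and -0.21, -0.14 and -0.15 in control cells. These groups overlapped, with a difference of 0.07 (SE 0.07, adjusted p = 0.727) and a 95% interval of -0.10 to 0.23, which leaves out a difference of the size seen in Spred2.

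Dusp6, which encodes a cytoplasmic phosphatase specific for ERK, read 0.99, 0.39 and 0.47 in mutant and 0.11, -0.34 and -0.27 in control cells in N2B27. No control array reached the lowest mutant array. The gene rose by 0.78 (SE 0.18, adjusted p = 0.0312). It no longer passed without control replicate 2 (adjusted p = 0.109) or 3 (0.118) or mutant replicate 1 (0.0626), and with these 2 groups fitted alone (0.0930). Dusp4, which encodes a nuclear phosphatase of ERK, read 1.61, 0.93 and 1.10 in mutant and 0.86, -0.42 and -0.22 in control cells. Control replicate 1 came within 0.0680 of the lowest mutant array. The difference was 1.14 (SE 0.31, adjusted p = 0.0604), or 1.54 without control replicate 1, where the gene was called (adjusted p = 0.00721), and it was also called with the replicate number as a block (adjusted p = 0.0298). Dusp4 lies on chromosome 8, whose genes stood 0.175 above those of the other autosomes (median over 955 genes) in mutant cells in this medium. Its part in the Dusp4 values was not tested.

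The Etv genes encode ETS domain activators. Etv4 read -0.48, 0.28 and -0.46 in mutant and -1.41, -1.37 and -1.64 in control cells in N2B27. Mutant replicate 2 was the highest array, and the other 2 mutant arrays still lay clear of all controls. The gene rose by 1.26 (SE 0.20, adjusted p = 0.00642), or 2.39-fold, and by 1.01 without mutant replicate 2 (adjusted p = 0.00544). Etv5 read -0.01, 0.23 and -0.42 in mutant and -1.03, -0.79 and -0.66 in control cells and rose by 0.76 (SE 0.15, adjusted p = 0.0189). That call was lost without control replicate 1 (adjusted p = 0.0597) or 2 (0.0547), under quantile normalization (0.0604) and with the 2 groups alone (0.0864). Its 2 clusters gave 0.96 and 0.56. Etv1 read 0.33, 0.24 and -0.23 in mutant and -1.10, -0.49 and -0.80 in control cells, with no overlap. The difference of 0.91 (SE 0.23, adjusted p = 0.0523) was not called, while it was with the replicate number as a block (adjusted p = 0.0265), without mutant replicate 3 (0.0401) and without control replicate 1 in ESC medium (0.0302). Without mutant replicate 2, the array that stood apart, the same count of 6 was called.

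In ESC medium the picture was another. Of the 10 genes, 2 fell in mutant cells, Spred1 and Dusp6, and none rose, while 3.05% of all genes fell and 3.09% rose (615 higher and 609 lower, against 326 and 165 under quantile normalization). In 6 genes every mutant array lay below every control array, against 21.7% of all genes, and in 1, Spry4, above (17.7%). The median difference was -0.28 against -0.01 over all genes. With 2 mutant arrays a simulated difference of 0.5 was recovered in 47.5% of genes and one of 1 in 90.5%. The simulation had 200 changed genes and independent noise on each array. More genes were called in the data, and same-numbered arrays deviated together, so these percentages describe the simulated setting.

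Dusp6 read -1.16 and -0.80 in mutant and -0.27, 0.00 and -0.05 in control cells in ESC medium. Both mutant arrays lay below all controls, and the gene fell by 0.88 (SE 0.20, adjusted p = 0.0281), or 1.84-fold. The call was lost without control replicate 2 (adjusted p = 0.0954) or 3 (0.0891) or mutant replicate 2 (0.268) or 3 (0.0641), and under quantile normalization (-0.55, adjusted p = 0.191). Dusp4 read -1.20 and -0.72 in mutant and -0.16, 0.13 and 0.15 in control cells, also without overlap. Its difference of -0.998 (SE 0.34, adjusted p = 0.141) was called with the 2 groups alone (adjusted p = 0.0286) and without control replicate 1 in N2B27 (0.0261). Chromosome 8 genes stood 0.132 above the other autosomes in mutant cells here. The part of that shift in the Dusp4 values was not tested.

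Spred1 read -0.34 and -0.45 in mutant and 0.44, 0.27 and 0.18 in control cells in ESC medium. The gap of 0.515 between the nearest arrays exceeded the spread within either group. It fell by 0.69 (SE 0.08, adjusted p = 0.00130) and was called in all 20 alternative fits. Spred2 read -0.06 and -0.05 in mutant and 0.21, 0.14 and 0.02 in control cells, with a difference of -0.18 (SE 0.08, adjusted p = 0.238). The groups did not overlap, but the nearest control array was only 0.0682 away.

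The Sprouty genes did not share a direction in ESC medium, and none was called. Spry1 read -0.73 and -0.64 in mutant and -0.52, -0.15 and -0.25 in control cells (difference -0.38, SE 0.14, adjusted p = 0.185). Spry2 read 0.23 and 0.00 in mutant and 0.64, 0.56 and 0.37 in control cells (-0.41, SE 0.19, adjusted p = 0.304). Spry4 read 1.83 and 1.98 in mutant and 1.79, 1.24 and 0.99 in control cells (0.57, SE 0.22, adjusted p = 0.208). Mutant arrays thus lay below control arrays for Spry1 and Spry2 and above them for Spry4, where control replicate 1 was within 0.0434 of a mutant array. Without that array Spry4 was called (0.79, adjusted p = 0.0311), and under quantile normalization its difference was -0.01.

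The Etv genes overlapped between genotypes in ESC medium. Etv1 read 0.65 and 0.20 in mutant and 0.46, -0.06 and -0.33 in control cells, Etv4 0.28 and 0.12 in mutant and 0.32, 0.00 and -0.16 in control cells, and Etv5 0.33 and 0.39 in mutant and 0.36, 0.56 and 0.39 in control cells. Their differences were 0.40 (95% interval -0.18 to 0.98), 0.15 (-0.34 to 0.64) and -0.08 (-0.46 to 0.29), with adjusted p of 0.525, 0.859 and 0.909. For Etv5 the 2 clusters disagreed in sign, with 0.10 and -0.27. The intervals for Etv4 and Etv5 leave out differences as large as those seen in N2B27.

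**Figure D2:**
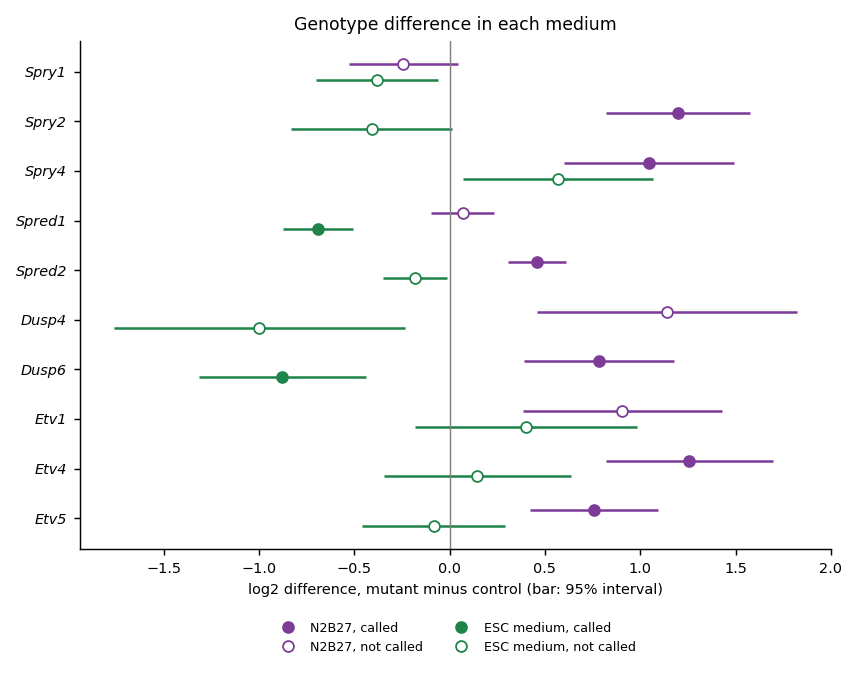
Log2 difference, mutant minus control (x axis), of each gene (y axis) in N2B27 (purple, upper) and ESC medium (green, lower), with bars for the 95% interval and filled points for called genes. The purple points lie right of 0 except for Spry1, and 7 of the 10 green points lie left of 0.

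Whether the genotype difference depends on the medium was tested by the interaction, in which the ESC medium difference is subtracted from the N2B27 difference. It was above 0 for all 10 genes (for Spry1 it was -0.12 under quantile normalization) and called for 5, Spry2, Spred1, Spred2, Dusp4 and Dusp6, while 1.57% of all genes were called above 0 and 0.552% below. The median was 0.80 against 0.01 over all genes. For 5 genes, Spry2, Spred2, Dusp4, Dusp6 and Spred1, the interaction went with a sign above 0 in N2B27 and below 0 in ESC medium. Etv5, not called, had the same 2 signs. Not all of these signs are settled. The 95% interval included 0 for Spred1 in N2B27 (-0.10 to 0.23), and for Spry2 (-0.83 to 0.01) and Etv5 (-0.46 to 0.29) in ESC medium. Dusp6 had both differences called, at 0.78 in N2B27 and -0.88 in ESC medium, which makes an interaction of 1.66 (SE 0.27, adjusted p = 0.0145). Dusp6 was the 1 gene of the 10 called in both media.

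The size of the interaction was 2.14 for Dusp4 (SE 0.46, adjusted p = 0.0457), 1.61 for Spry2 (SE 0.25, adjusted p = 0.0143), 0.76 for Spred1 (SE 0.11, adjusted p = 0.0104) and 0.64 for Spred2 (SE 0.10, adjusted p = 0.0143). The 5 called genes are feedback inhibitors, and no Etv gene was called, with 1.11 for Etv4 (adjusted p = 0.0985), 0.84 for Etv5 (0.101) and 0.51 for Etv1 (0.621). Whether inhibitors and Etv genes differ in this respect was not tested. Spry4 had 0.48 (95% interval -0.19 to 1.15, adjusted p = 0.566), and Spry1 had 0.14 (-0.29 to 0.56, adjusted p = 0.855). These calls rested on few arrays: without mutant replicate 2 in ESC medium only Spred1 was called (Spry2 0.0631, Dusp4 0.220, Dusp6 0.0943 and Spred2 0.0826), and without mutant replicate 3 only Dusp6 (Spred1 0.0529, Spred2 0.0570, Spry2 0.0676 and Dusp4 0.0936). The Dusp4 call was also lost without any of 6 other arrays, under median centring (0.0535), under quantile normalization (0.0696) and with a robust prior (0.05001). The Spry2 call was lost under quantile normalization too (1.45, adjusted p = 0.0839), while Etv4 passed without mutant replicate 2 in N2B27 (0.86, adjusted p = 0.0461) and Etv5 without mutant replicate 3 (1.02, adjusted p = 0.0252). With the replicate number as a block the same number of the 10 genes, 5, was called, and 657 genes over all against 422.

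How each genotype responded to N2B27 gives the other view of the same arrays, and shares them with the comparisons above. In mutant cells 4 of the 10 genes rose against ESC medium, Spry1, Dusp4, Dusp6 and Spred1, and 1 fell, Spry4. In all, 14.9% of genes rose and 10.3% fell. In control cells 1 rose, Spry1, and 7 fell, Spry2, Spry4, Spred1, Spred2, Etv1, Etv4 and Etv5, where 12.8% of all genes rose and 13.3% fell. Arrays of the 2 media did not overlap in 5 genes higher and 2 lower in N2B27 in mutant cells, against 24.2% and 19.3% of all genes, and in 1 higher and 7 lower in control cells, against 23.5% and 20.4%. The medians over the 10 genes were -0.05 in mutant and -0.64 in control cells.

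Spry1 and Spry4 moved the same way in both genotypes. Spry1 rose by 0.78 in mutant (SE 0.14, adjusted p = 0.00275) and by 0.65 in control cells (SE 0.13, adjusted p = 0.00443). Spry4 had the largest drop of the 10 genes in each genotype, with -2.14 in mutant (SE 0.22, adjusted p = 0.000126) and -2.62 in control cells (SE 0.20, adjusted p = 3.27e-05). Spred1 rose by 0.29 in mutant cells (SE 0.08, adjusted p = 0.0243) and fell in control cells (-0.46, SE 0.07, adjusted p = 0.00132). In mutant cells that call was lost without replicate 2 (adjusted p = 0.0597) or 3 (0.179) in ESC medium, without replicate 3 in N2B27 (0.0532), under quantile normalization (0.0858) and with the 2 groups alone (0.0702).

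The phosphatase genes rose in mutant cells, Dusp4 by 2.17 (SE 0.34, adjusted p = 0.00123) and Dusp6 by 1.60 (SE 0.20, adjusted p = 0.000304), which is 4.50-fold and 3.03-fold. In control cells the medium made a difference of 0.03 (95% interval -0.65 to 0.71) for Dusp4 and -0.06 (-0.46 to 0.33) for Dusp6, with overlapping arrays in both genes. The control intervals do not reach the changes of the mutant cells.

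Spry2 and the Etv genes fell in control cells. Spry2 had -1.98 (SE 0.17, adjusted p = 5.30e-05), Etv4 -1.53 (SE 0.20, adjusted p = 0.000415), Etv5 -1.27 (SE 0.15, adjusted p = 0.000270) and Etv1 -0.82 (SE 0.23, adjusted p = 0.0269), and Spred2 had -0.43 (SE 0.07, adjusted p = 0.00129). The Etv1 call was lost without control replicate 1 (adjusted p = 0.0934) or 2 (0.0562) in ESC medium and without replicate 1 (0.0998) or 3 (0.0705) in N2B27. In mutant cells the same genes had -0.37 (Spry2), -0.42 (Etv4), -0.43 (Etv5), -0.31 (Etv1) and 0.21 (Spred2), none called. Without mutant replicate 2 in N2B27, Spry2 (-0.54, adjusted p = 0.0386), Etv4 (-0.67, adjusted p = 0.00757) and Etv5 (-0.57, adjusted p = 0.0169) were called lower in mutant cells too. With array weights Spry2 (-0.72, adjusted p = 0.00305), Etv4 (-0.61, 0.00678) and Etv5 (-0.69, 0.00187) were called lower there, and Spred2 higher (0.19, 0.0486). The 2 clusters of Etv5 gave -0.75 and -0.10 in mutant cells, and with the more variable one Etv5 was called (adjusted p = 0.00593).

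**Figure D3:**
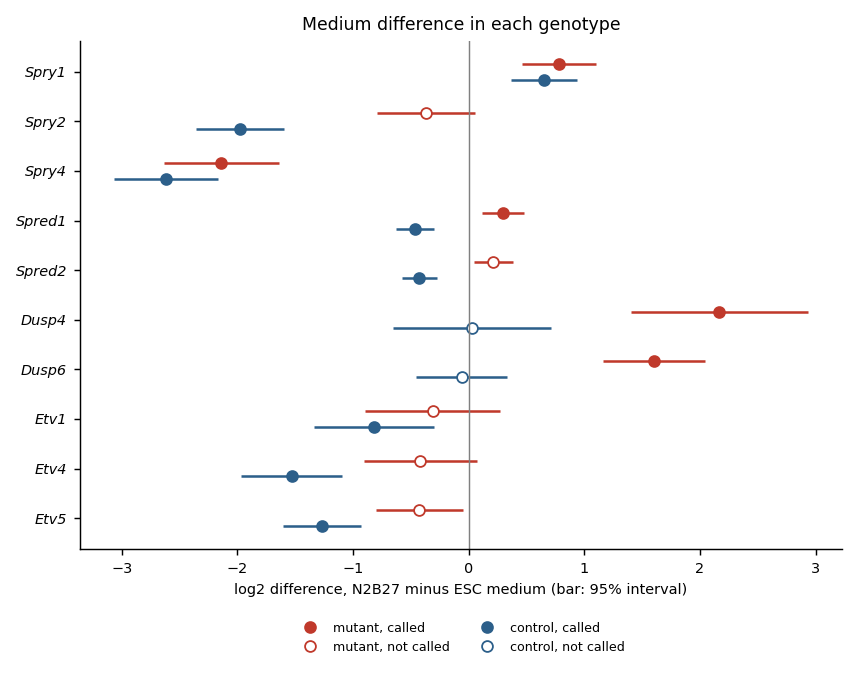
Log2 difference, N2B27 minus ESC medium (x axis), of each gene (y axis) in mutant (red, upper) and control cells (blue, lower), with bars for the 95% interval and filled points for called genes. Blue points of Spry2, Spry4, Spred1, Spred2 and the Etv genes lie left of 0, and the red points of Dusp4 and Dusp6 lie at 2.17 and 1.60.

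The order of the 4 group means separated the genes further. Control cells in N2B27 held the lowest mean for Spry2, Spry4, Spred2, Etv1, Etv4 and Etv5, and their arrays lay below all arrays of the next group. Mutant cells in ESC medium held the lowest mean for Spry1, Dusp4, Dusp6 and Spred1, again clear of the next group. Gaps between neighbouring groups were not counted over all genes, so those described here cannot be set against a share of all genes. For Dusp4 and Dusp6 the mutant cells held both ends, highest in N2B27 and lowest in ESC medium, and the control groups lay between them and overlapped each other. For Etv1 the other 3 groups overlapped in order, from mutant cells in ESC medium (0.42 ± 0.32, SD, n = 2) through mutant cells in N2B27 (0.11 ± 0.30, n = 3) to control cells in ESC medium (0.02 ± 0.40, n = 3). Etv4 likewise had overlapping neighbours above the control cells in N2B27 (-1.48 ± 0.15, n = 3). Only for Spry4 did no neighbouring groups overlap, with -0.23 ± 0.27 in mutant and -1.28 ± 0.20 in control cells in N2B27 (SD, n = 3 each), and 1.91 ± 0.10 in mutant (n = 2) and 1.34 ± 0.41 in control cells (n = 3) in ESC medium.

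Likeness between profiles was measured by Pearson's r over the 11 arrays among 17059 named genes, as a description, since the arrays fall into 4 groups and share the medium and genotype differences. Dusp4 and Dusp6 were each other's closest gene of all, with r = 0.976. Their lowest array was also the same one in each of the 4 groups. Spry2 had r = 0.97 with Etv5 and 0.93 with Etv4, and Etv4 had 0.92 with Etv5. Spry1 ran against Spry4 (r = -0.93) and against Etv4 (-0.84). Spred1 was least tied to the others, with r between -0.06 and 0.50. The closest genes outside the 10 were Kank1, Smtn and Rhoq for Spry1 (r = 0.987 to 0.990), Nsun4, Clec16a and Morc2a for Spry2 (0.975 to 0.984), and Hsd17b14, Triml2 and Zfp42 for Spry4 (0.991 to 0.992). Of these, Triml2 and the pluripotency gene Zfp42 lie on chromosome 8. Runx1, Ccn4 and Bmp1 stood closest to Spred1 (0.961 to 0.976), Cd34, Ufm1 and Homer3 to Etv4 (0.976 to 0.979), and Clec16a, Trh and Nsun4 to Etv5 (0.975 to 0.980). For Spred2 they were Ubxn2b, Cep68 and C87436 (0.930 to 0.957) and for Etv1 Znrf2, Ufd1 and Jtb (0.939 to 0.944).

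The same arrays can be read along the pathway, from ligand to target. Over all genes, 4.1% rose and 1.64% fell in mutant cells in N2B27, and 3.09% rose and 3.05% fell in ESC medium. Of 14 FGF ligand genes none was called in N2B27 (1 was lower under quantile normalization), with a median difference between genotypes of -0.05. In ESC medium 1 fell, Fgf17 (-0.51, SE 0.12, adjusted p = 0.0376). Fgf4, the main ligand of ESCs, had 0.53 in N2B27 (adjusted p = 0.128), with no overlap of arrays, and 0.34 in ESC medium (0.452), where quantile normalization gave -0.25. Of 5 receptor genes, Fgfr2 and Fgfr3 fell in mutant cells in N2B27. Fgfr2 had -1.23 (SE 0.23, adjusted p = 0.0144), Fgfr3 had -0.40 (SE 0.09, adjusted p = 0.0259), and none was called in ESC medium. Fgfr2 was called in both genotypes between media, with 0.86 in mutant (not called under quantile normalization, adjusted p = 0.164) and 2.08 in control cells. The interaction was called for Fgfr3 alone among the receptors, at -0.60 (adjusted p = 0.0441), and for none of them under quantile normalization.

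Of 16 measured genes of the kinase cascade and its adaptors, 2 rose in mutant cells in N2B27 and 1 in ESC medium, and none fell. They were Gab1, a docking protein gene on chromosome 8 (0.67, SE 0.13, adjusted p = 0.0159), and the X-linked RAF family gene Araf, with 0.30 in N2B27 (adjusted p = 0.0392, not called under quantile normalization) and 0.62 in ESC medium (adjusted p = 0.00200). The shares over all genes were 4.1% higher and 1.64% lower in N2B27, and 3.09% higher and 3.05% lower in ESC medium. The median differences over the 16 genes were -0.07 in N2B27 and -0.04 in ESC medium. No gene of the cascade was called in the interaction. Of all genes, 615 were called higher in mutant cells in ESC medium, 150 of them on chromosome 8. Without chromosomes 8, X and Y, 268 were called higher. A shift of X-linked genes was not measured, and its part in the Araf values was not tested.

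A list of 30 further ERK feedback and target genes had 7 higher and 0 lower in mutant cells in N2B27 (4.1% and 1.64% of all genes), with a median of 0.22. In ESC medium it had 0 higher and 5 lower (3.09% and 3.05% of all genes), with a median of -0.23. Under quantile normalization these counts were 3 and 0 in N2B27 and 0 and 2 in ESC medium, with medians of 0.17 and -0.16, and Epha2, Egr1, Phlda1, Errfi1 and Il17rd, named next, lost their calls. Epha2, an ephrin receptor gene induced by ERK, read -0.93, -0.82 and -1.53 in mutant and -2.23, -2.27 and -2.16 in control cells in N2B27, and rose by 1.13 (SE 0.16, adjusted p = 0.00424). The immediate early genes Ier2, on chromosome 8, and Egr1 rose by 1.12 (adjusted p = 0.00411) and 0.92 (0.0419), and Phlda1 by 0.85 (0.0267). In ESC medium none of these was called. Ier2 (0.66, adjusted p = 0.0556) and Egr1 (0.42, 0.459) were above 0 there too, while Epha2 (-0.48, 0.183) and Phlda1 (-0.79, 0.0506) were below. In ESC medium, Il17rd, which encodes the FGF receptor antagonist SEF, read -0.87 and -0.81 in mutant and -0.09, -0.10 and -0.17 in control cells. It fell by 0.72 (SE 0.09, adjusted p = 0.00195). Dusp14 (-1.06), Errfi1, the feedback inhibitor of EGF receptors (-0.93), and Elk3 (-0.50) fell too. In N2B27 none of these was called, with -0.10 for Dusp14, -0.17 for Errfi1, 0.12 for Il17rd and 0.24 for Elk3. In the interaction 6 of the 30 were called, all above 0 (1.57% of all genes), among them Phlda1 (1.64), Epha2 (1.60), Spred3 (0.99) and Il17rd (0.83). Under quantile normalization 2 were called, and these 4 were not.

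**Figure D4:**
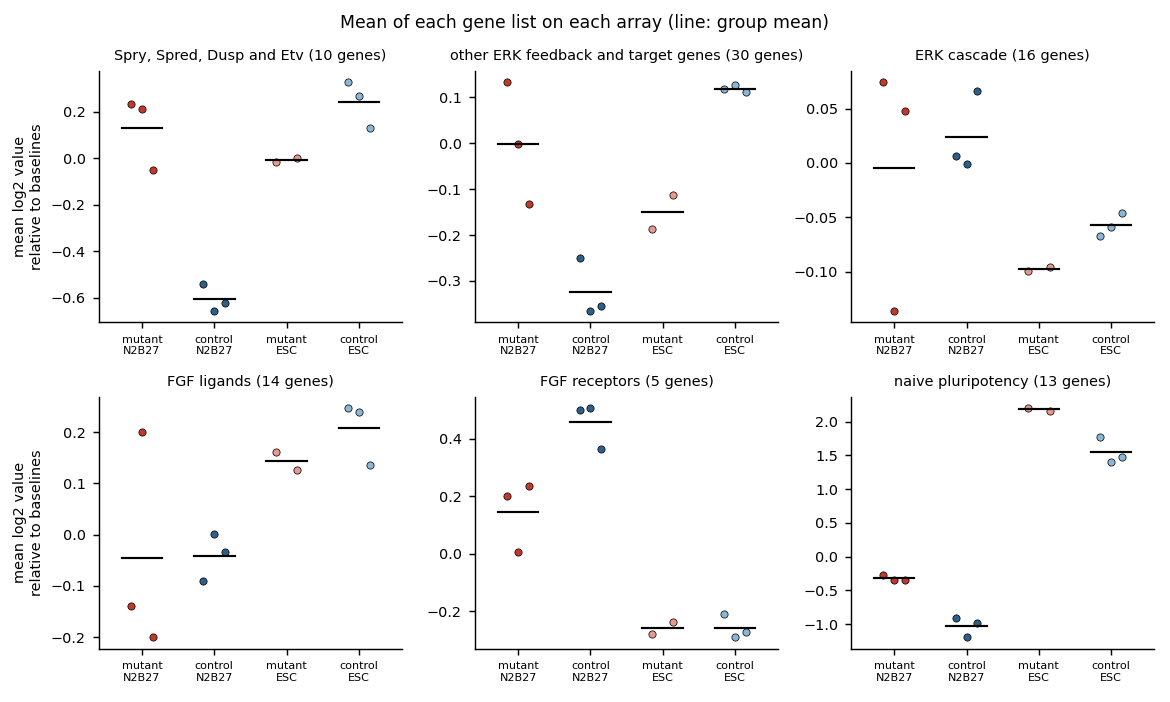
Mean log2 value per array (y axis) over the 10 genes and over 5 other lists, by group (x axis, mutant left of control in each medium), with lines at group means. The 10 genes average -0.05 to 0.23 in mutant and -0.66 to -0.54 in control cells in N2B27, and -0.02 to 0.00 in mutant and 0.13 to 0.33 in control cells in ESC medium.

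Markers of cell states were read on the same arrays. Over all genes, 3.09% rose and 3.05% fell in mutant cells in ESC medium, and 4.1% rose and 1.64% fell in N2B27. In ESC medium 5 of 13 naive pluripotency genes rose in mutant cells and none fell, but under quantile normalization 0 were called, the median was -0.02 against 0.63, and Zfp42 had -0.23 against 0.88. That step sets each value by its rank on the array, so by itself it can shrink differences of genes with extreme values. In ESC medium 4 of 10 fibroblast or feeder genes fell and none rose, with array means of -0.55 to -0.49 in mutant and 0.03 to 0.20 in control cells. Of 9 formative epiblast genes 2 fell, Cldn6 (-1.79) and Lef1 (-1.27). Under quantile normalization 1 fibroblast or feeder gene was called lower, and of these 2 formative genes only Cldn6. Of 11 neural progenitor genes 2 rose in mutant cells in ESC medium, Tubb3, on chromosome 8 (1.18), and Ncam1 (0.94), and none fell. Under quantile normalization 0 of the 11 were called. No general pluripotency, primitive endoderm, mesoderm or trophoblast gene was called in ESC medium. In N2B27, 2 of 8 general pluripotency genes rose in mutant cells, Dppa2 (1.58, adjusted p = 0.00524) and Pou5f1 (0.48, 0.0266), and 0 fell, with a median of 0.31. In N2B27 the counts of genes higher and lower in mutant cells were 2 and 1 of 11 for neural progenitor, 0 and 1 of 10 for primitive endoderm, 0 and 0 of 9 for mesoderm, 1 and 0 of 8 for trophoblast, 1 and 0 of 9 for formative epiblast and 1 and 1 of 10 for fibroblast or feeder genes. The neural genes called there were Tubb3 (2.01) and Nes (1.27), both higher, and Msi1 (-0.71), lower. The part of these differences in the values of the 10 genes was not tested. Because values are centred per gene, absence of a marker cannot be read from them, so the labelled cell type could not be checked by presence or absence.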

How the data were processed

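RNA of 11 samples was measured on Affymetrix whole-transcript arrays. Per the submitters' processing notes, the authors used RMA and Affymetrix Expression Console 1.2, and the deposited values are taken as log2. The log base is the usual output of RMA, and no genome build is named in the sources used. Each transcript cluster had been centred on an unstated baseline, since 55.8% of 28815 clusters have an array at exactly 0, so brightness is lost and no filter on dim probes was possible. The 21780 clusters with 1 gene symbol in the platform annotation were used (1605 had several and 5430 none), of which 21689 matched RefSeq GRCm38.p6 by Entrez identifier. A gene with several clusters got their average, giving 19935 genes.

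Group means were fitted over all 4 groups with limma 3.58.1 in R 4.3.3 (residual degrees of freedom 7, prior degrees of freedom 3.02) and tested two-sided. On simulated data with 200 changed genes and independent noise on each array, a difference of 1 was recovered in 92.5% of genes for genotype in N2B27 and 84.0% for the interaction, and one of 0.5 in 58.5% and 14.5%. The alternatives left out each array, added the replicate number as a block, changed normalization, weights, prior, arrays or genes tested, or took the most variable cluster. Median centring and quantile normalization were run on the values already centred per gene.

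Same-numbered arrays deviated together from their group means, with r of 0.256, 0.430 and 0.158 between genotypes in N2B27, and of 0.138, 0.181 and 0.131 between media in control cells. The alternative fit with a block therefore takes the numbers as pairing, on the values and not on a label. The main fit has no block, so its SEs and calls leave any such pairing out. The genes named are Bmpr1a, the 10 members, up to 4 called genes of each pathway and marker list (where none was called, the 2 with the largest difference) and the 3 genes closest to each member. The members and lists were chosen with earlier results of these data known. Of the lists, 7 cascade genes and 1 neural gene are not analysed here.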

Additional observations from a re-analysis of the deposited data

Results flagged for a closer look

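Of the 10 genes, 5 had a genotype difference that differed between N2B27 and ESC medium by the interaction test in limma over 19935 genes. All 5 were above 0, where 1.57% of all genes were called above 0 and 0.552% below. Of these 5, 0 were called under every alternative that was run. The interaction was 2.14 for Dusp4, 1.66 for Dusp6, 1.61 for Spry2, 0.76 for Spred1 and 0.64 for Spred2. The groups hold 2 or 3 arrays, so single arrays were not tested as outliers.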

How the results depend on the processing

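Results were recomputed under 20 alternatives, or 19 for the interaction, for which no 2 groups can be fitted alone. Dusp4 had 1 fewer, as it leaves with chromosome 8. Of the genes called, 3 of 6 for genotype in N2B27 (Spry2, Spred2, Etv4), 1 of 2 in ESC medium (Spred1), 4 of 5 for medium in mutant cells (all but Spred1), 7 of 8 in control cells (all but Etv1) and 0 of 5 in the interaction were called under every alternative that was run. Leaving out 1 array at a time gave 3 to 7 called genes of the 10 for genotype in N2B27 (454 to 1251 over all genes), 1 to 3 in ESC medium (304 to 1707), 4 to 8 for medium in mutant cells (2720 to 5956), 7 to 8 in control cells (3987 to 6044) and 1 to 6 in the interaction (59 to 633). Where 1 mutant array in ESC medium is left, it is assumed to vary like the other groups. The replicate block, taken as pairing, gave 8 genes of the 10 in N2B27, Dusp4 and Etv1 being added, changed no other call among the 10 genes, and gave 657 genes over all in the interaction against 422. Array weights gave 5 genes of the 10 in ESC medium and 9 for medium in mutant cells, and 2882, 3138, 7689 and 1782 over all genes for genotype in N2B27, genotype in ESC medium, medium in mutant cells and the interaction. Quantile normalization gave 1 gene of the 10 in ESC medium (491 over all, 326 higher and 165 lower) and 3 in the interaction (172 over all). This step was run on values already centred per gene, and makes the distribution of these centred values the same on every array. It turned the ESC medium difference of Zfp42 to -0.23 (adjusted p = 0.678) against 0.88, and the interaction of Spry1, not called, to -0.12. Quantile normalization gives the same value to a given rank on every array. Genes at extreme ranks on all arrays can therefore lose a difference by the step itself. For such genes a lost call does not tell whether the difference was present. Its part in each change was not tested. The 2 groups of N2B27 fitted alone gave 397 genes against 1144. Without chromosomes 8, X and Y, which removes genes from the test, 610 genes were called in N2B27, and 766 in ESC medium with 268 higher and 498 lower against 615 and 609. Brightness was not available, so the least variable genes were left out in place of dim probes.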

Other observations

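Among 17 other ETS family genes, whose products bind related DNA sequence, 2 were higher and none lower in mutant cells in N2B27 (4.1% and 1.64% of all genes). In ESC medium 2 were higher and 2 lower (3.09% and 3.05% of all genes). Elf3, an epithelial ETS factor gene, rose in mutant cells in both media, by 0.86 (SE 0.07, adjusted p = 0.000400) in N2B27 and 0.62 (SE 0.08, adjusted p = 0.00216) in ESC medium. X-linked Elk1, a target of ERK phosphorylation, rose by 0.23 (adjusted p = 0.0471) in N2B27 and 0.73 (adjusted p = 0.000261) in ESC medium, and was the 1 gene of this list called in the interaction (-0.50, adjusted p = 0.0199). A shift of X-linked genes was not measured, and its part in the Elk1 values was not tested. Ets1 and Elk4 fell in mutant cells in ESC medium, with -0.65 (SE 0.11, adjusted p = 0.00822) and -0.30 (SE 0.08, adjusted p = 0.0468). Under quantile normalization the list had 1 higher and none lower in each medium, and none was called in the interaction.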
